A study of Mus musculus with 9 samples.

Results

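The 9 genes described here encode the proteolytic machinery that can act on the endothelial receptor Tie1, together with regulators of that machinery. They are the membrane-anchored metalloproteases Adam9, Adam10, Adam15 and Adam17, the ADAM17 escort Rhbdf1, the gamma-secretase subunit genes Psen2, Ncstn and Aph1a, and the metalloprotease inhibitor Timp3. They were taken by gene symbol from a table of 9277 genes, and all 9 were found. RNA was sequenced from lung endothelial cells of Tie1-CR mice, whose Tie1 receptor is resistant to proteolytic cleavage (5 libraries), and of Tie1-WT mice with the wild type receptor (4 libraries). The library names of both genotypes carry PBS, and no library of an inflammatory challenge is analysed here. The age, sex and strain of the mice, the number of mice per library and the way in which cells were isolated are not stated by the labels. The libraries are labelled as replicates but not as separate mice, so the p-values below measure the spread between these samples.

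Tie1 is a receptor tyrosine kinase of endothelium that pairs with Tek (Tie2), the receptor of the angiopoietins. Its extracellular part can be shed by metalloproteases, and the membrane-bound remainder can then be cut within the membrane by gamma-secretase. ADAM proteases are made as inactive precursors that mature on the way to the cell surface, so that transcript levels do not give protease activity, which was not measured. The comparison asked whether the transcripts of this machinery differ between endothelial cells with the cleavage-resistant and with the wild type receptor.

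Coding segments of known sites are given here for the 4 proteases, Rhbdf1 and Psen2. An ADAM metalloprotease holds its catalytic zinc with 3 histidines, and the coding segments of that site are shown 5′ to 3′ on the coding strand, with the codons of the 3 histidines in capitals (GENCODE annotation of GRCm38).
Adam9, chr8:24990323-24990358, minus strand: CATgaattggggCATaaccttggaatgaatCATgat
Adam10, chr9:70754296-70761588, plus strand, joined across an intron: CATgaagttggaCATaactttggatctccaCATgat
Adam15, chr3:89344777-89344812, minus strand: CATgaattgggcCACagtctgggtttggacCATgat
Adam17, chr12:21336729-21336764, minus strand: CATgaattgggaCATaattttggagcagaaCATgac
Over these 36 bases, Adam10 and Adam17 shared 28 bases (77.8%), the most of any pair, and Adam10 and Adam15 shared 22 (61.1%), the fewest. The segments were found by a pattern of amino acids required in all 4, which fixes part of this identity in advance. Adam15 is the only one of the 4 with CAC in place of CAT for the middle histidine. Rhbdf1 encodes iRhom1, a relative of the rhomboid proteases that lacks their catalytic serine and works as an escort for ADAM17 in the secretory pathway. Its coding segment at the place of that serine was found by a pattern that already held an alanine there. No rhomboid protease was compared. The segment is shown with the alanine codon in capitals.
Rhbdf1, chr11:32210197-32210220, minus strand: ggtccgGCCggctcccagtttggc
Psen2 encodes presenilin 2, a catalytic subunit of gamma-secretase, and the codon of one of its catalytic aspartates is in capitals.
Psen2, chr1:180228921-180228947, minus strand: ggcctgggaGACttcatcttctacagc

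Among the 9 genes, 1 was higher in Tie1-CR and 0 were lower (limma across all 9277 genes, Benjamini-Hochberg adjusted p below 0.05). The gene that rose was Rhbdf1. Over all genes, 1.28% were called higher and 2.77% lower, together 4.05%. That split was 119 higher and 257 lower genes, but 182 and 194 with TMM scaling and 183 and 190 with quantile normalization, and Rhbdf1 was called higher under both. At an unadjusted p below 0.05, the counts for the 9 genes were the same, 1 higher and 0 lower, where 22.3% of all genes passed in either direction. The median log2 difference of the 9 genes, Tie1-CR minus Tie1-WT, was 0.09, beside -0.027 for all genes. Of the 9 genes, 7 had a difference above 0, as did 3848 of all 9277 genes. In 1 of the 9, all libraries of Tie1-CR lay above those of Tie1-WT, which held for 3.74% of all genes. The reverse, all Tie1-CR libraries below those of Tie1-WT, was found for 0 of the 9 genes and for 6.74% of all genes. Values are CPM, the reads of a gene scaled to a common total of reads per library, and differences are on the log2(CPM + 1) scale. Each of the 9 genes was covered by at least 964 reads in each library, so that counting error alone was at most 3.22% of their values, if each read is taken as independent.

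**Figure D1:**
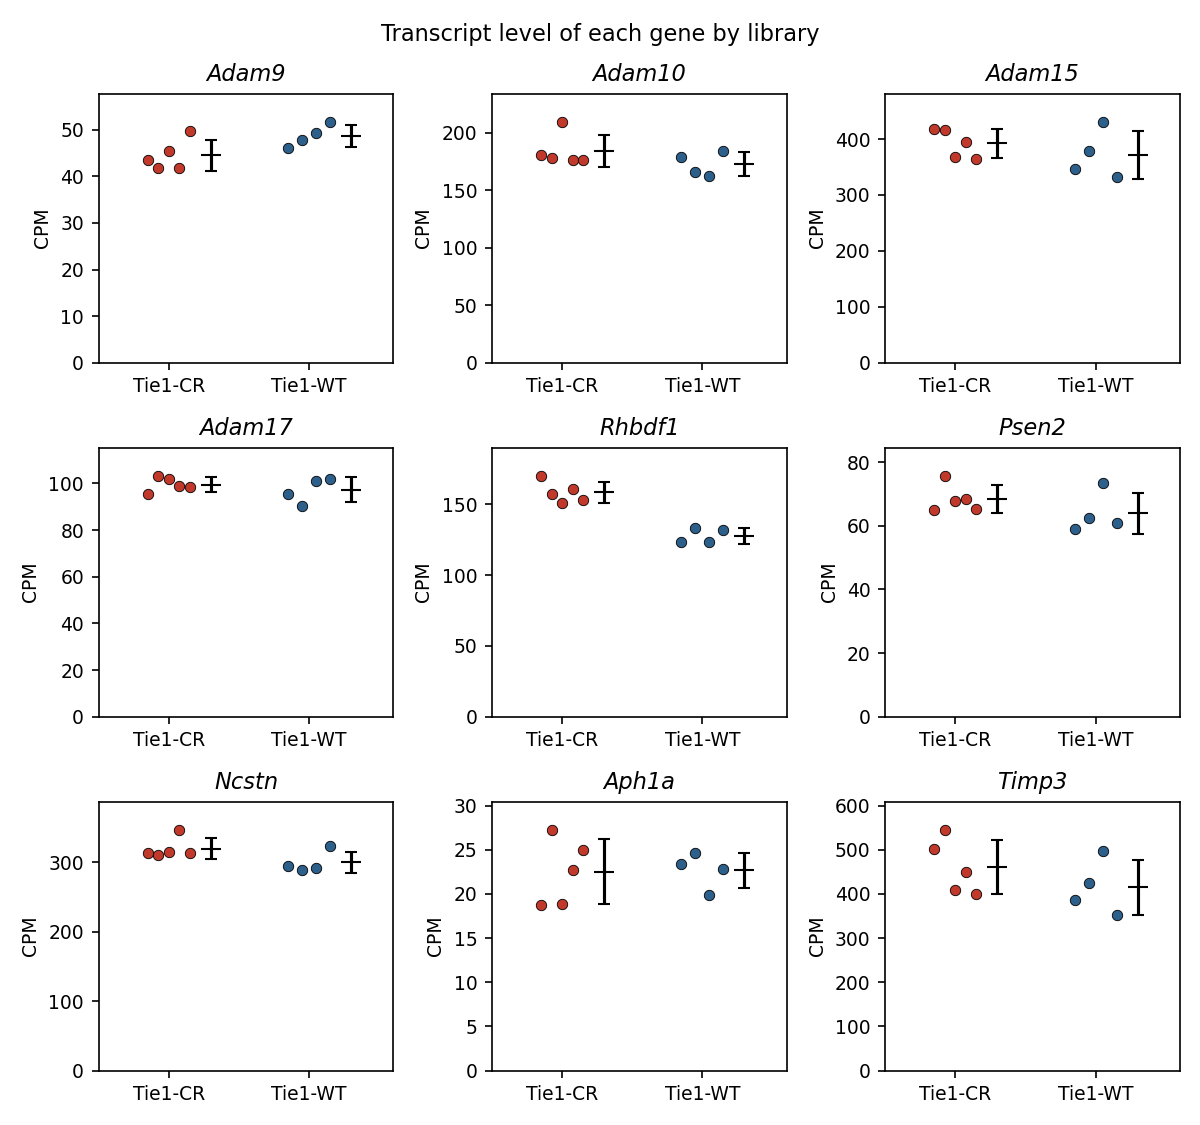
Level of each of the 9 genes in CPM (y axis, from 0) in every library of Tie1-CR (red) and Tie1-WT (blue); the bar beside each group is the mean with its SD (n = 5 and n = 4). Only for Rhbdf1 do the 2 groups not overlap, with Tie1-CR between 151 and 169.7 CPM and Tie1-WT between 123 and 133 CPM.

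Of the 4 ADAM proteases, 0 passed the test in either direction (limma, and 0 also at an unadjusted p below 0.05). Adam17 encodes the principal sheddase of many cytokines and receptors, formerly known as TACE. It measured 95.4, 103, 102, 98.7 and 98.4 CPM in the Tie1-CR libraries and 95.5, 90.5, 101 and 102 CPM in the Tie1-WT libraries. The libraries of both genotypes covered nearly the same range, with the lowest value in a Tie1-WT library and the highest in a Tie1-CR library. The log2 difference was 0.03, with a 95% interval of -0.07 to 0.14 (limma adjusted p = 0.724), which spans a fold change between 0.951 and 1.10.

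Adam10 encodes the protease that performs the ligand-induced cleavage of Notch receptors and also cleaves endothelial cadherin. It measured 181, 178, 209, 176 and 176 CPM in Tie1-CR and 179, 166, 162 and 184 CPM in Tie1-WT. Apart from Tie1-CR replicate 3, which stood above all others, the Tie1-CR libraries lay within the range of the Tie1-WT libraries. The log2 difference was 0.09, with a 95% interval of -0.05 to 0.23 (limma adjusted p = 0.433).

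Adam15, a disintegrin metalloprotease with an integrin-binding motif that is expressed in endothelium, measured 418, 417, 368, 395 and 365 CPM in Tie1-CR. In Tie1-WT it measured 346, 378, 430.0 and 333 CPM. The highest single value of all was that of Tie1-WT replicate 3, and the groups overlapped over most of their range (log2 difference 0.08, 95% interval -0.09 to 0.25, limma adjusted p = 0.559). In the annotation, 20.6% of the exon bases of Adam15 are shared with a gene on the opposite strand, 4731419I09Rik. The library kit does not mark strand, so reads of the 2 genes cannot be told apart in that stretch.

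Adam9 encodes a related protease of broad expression. It measured 43.6, 41.9, 45.4, 41.9 and 49.7 CPM in Tie1-CR and 46.1, 47.9, 49.3 and 51.6 CPM in Tie1-WT. It was the one ADAM gene with a mean below that of Tie1-WT, and 4 of its 5 Tie1-CR libraries lay below all Tie1-WT libraries, with Tie1-CR replicate 5 as the exception. The log2 difference was -0.13 and did not pass (unadjusted p = 0.0504, limma adjusted p = 0.225).

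Rhbdf1 was the gene that rose. Its protein, iRhom1, binds ADAM17 and helps it leave the endoplasmic reticulum, mature and stay stable at the cell surface, a role it shares with iRhom2. The gene lies on chromosome 11, from 32209585 to 32222300 on the minus strand of GRCm38, and its exons are shared with no other annotated gene. It measured 169.7, 157, 151, 161 and 153 CPM in Tie1-CR and 123, 133, 123 and 132 CPM in Tie1-WT. All 5 Tie1-CR libraries lay above all 4 Tie1-WT libraries, and the gap between the groups was wider than the whole range of the Tie1-WT libraries. The means were 158 ± 7.52 CPM in Tie1-CR (SD, n = 5) and 128 ± 5.45 CPM in Tie1-WT (SD, n = 4). The log2 difference was 0.31 ± 0.05 (SE), with a 95% interval of 0.20 to 0.42, or 1.24-fold with an interval of 1.15 to 1.34 (limma adjusted p = 0.00948). By its p-value Rhbdf1 ranked 58 among the 9277 genes, and its difference stood at percentile 98.2 of all differences.

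**Figure D2:**
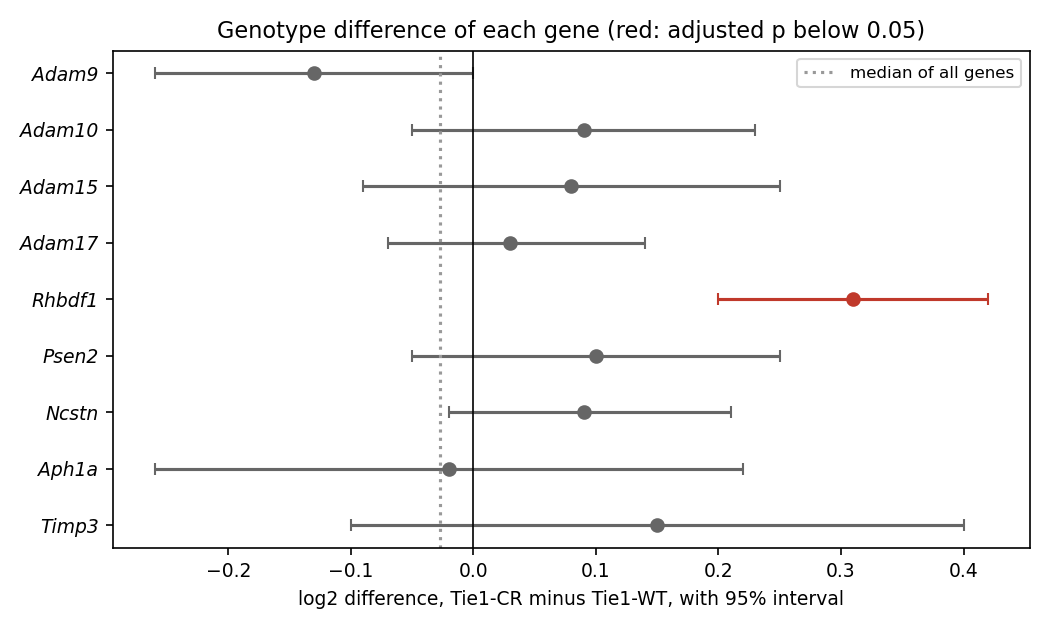
Difference between Tie1-CR and Tie1-WT for each of the 9 genes on the log2(CPM + 1) scale (x axis), with its 95% interval; red marks an adjusted p below 0.05 and the dotted line the median of all genes, -0.027. Rhbdf1 stands at 0.31, and the intervals of the other 8 genes reach or cross 0.

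Since iRhom1 acts on ADAM17, the ratio of the 2 transcripts was taken in each library, a comparison chosen with the rise of Rhbdf1 already known. Rhbdf1 stood to Adam17 at 1.78, 1.53, 1.48, 1.63 and 1.56 in Tie1-CR and at 1.28, 1.47, 1.22 and 1.3 in Tie1-WT. The lowest Tie1-CR ratio, 1.48, lay just above the highest Tie1-WT ratio, 1.47, and the other libraries were further apart. The log2 ratio averaged 0.67 ± 0.10 in Tie1-CR (SD, n = 5) and 0.39 ± 0.11 in Tie1-WT (SD, n = 4), a difference of 0.28. That value follows from the differences of the 2 genes given above and is not a further test. This ratio is one of CPM, which are not divided by transcript length, so its size is read only between libraries.

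With a library left out, the difference of Rhbdf1 ran from 0.28 to 0.33 log2. Without Tie1-WT replicate 1 it was 0.29 log2 and did not pass (limma adjusted p = 0.0511). In that setting only 6 genes of the whole table were called higher and 54 lower. Over 21 alternatives the difference ran from 0.24 to 0.33 log2, with adjusted p between 0.00509 and 0.126. Some transcripts of lung epithelium moved with the genotype. Of 18 epithelial markers 11 were measured, of which 3 were higher in Tie1-CR (Sftpd, Cbr2 and Cyp2f2) and 0 were lower (limma; 8 higher and 0 lower at an unadjusted p below 0.05). Of the 11, 9 had a difference above 0 and 2 below it, the type 1 pneumocyte markers Ager (-0.54) and Hopx (-0.17). Over the whole table, 3848 of the 9277 genes had a difference above 0, 1.28% were called higher and 2.77% lower. At an unadjusted p below 0.05, 22.3% passed in either direction. The median log2 difference of the 11 was 0.96, and their summed level was 569.9 to 935 CPM in Tie1-CR and 338 to 752 CPM in Tie1-WT. Each gene of the table reaches at least 10.01 CPM in some library. Cyp2f2, Sftpb, Cdh1 and Scgb1a1 did so only in Tie1-CR, with highest Tie1-WT values of 6.33, 8.35, 7.39 and 6.76 CPM. Their place in the table rests on the group where they are high, so the counts and the median of this list can lean toward Tie1-CR. The epithelial markers Epcam, Krt8, Krt18, Krt19, Lamp3, Rtkn2 and Scgb3a2 are not among the 9277 genes. With the mean log2 level of the measured epithelial markers as a covariate, the difference of Rhbdf1 was 0.29 ± 0.07 log2 (SE) and did not pass (limma adjusted p = 0.126). Without the covariate it was 0.31 ± 0.05 log2 (SE). In the fit with the covariate only 1 gene of the whole table was called higher and 16 lower. Since the markers moved with the genotype, this fit cannot tell the 2 apart. In bulk RNA, a different number of cells of a type and a different amount of RNA per cell cannot be told apart.

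Base composition moved with the genotype as well. In 5 bins of similar size by the GC content of the longest coding transcript, the median log2 difference over all genes was -0.09, -0.06, -0.03, 0.01 and 0.06, from the lowest GC to the highest. The Rhbdf1 transcript has 60.4% GC, which places it in the highest bin (55.9% to 73.7%). With each library corrected for GC content and length, the difference of Rhbdf1 was 0.24 log2 and passed (limma adjusted p = 0.0211).

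**Figure D3:**
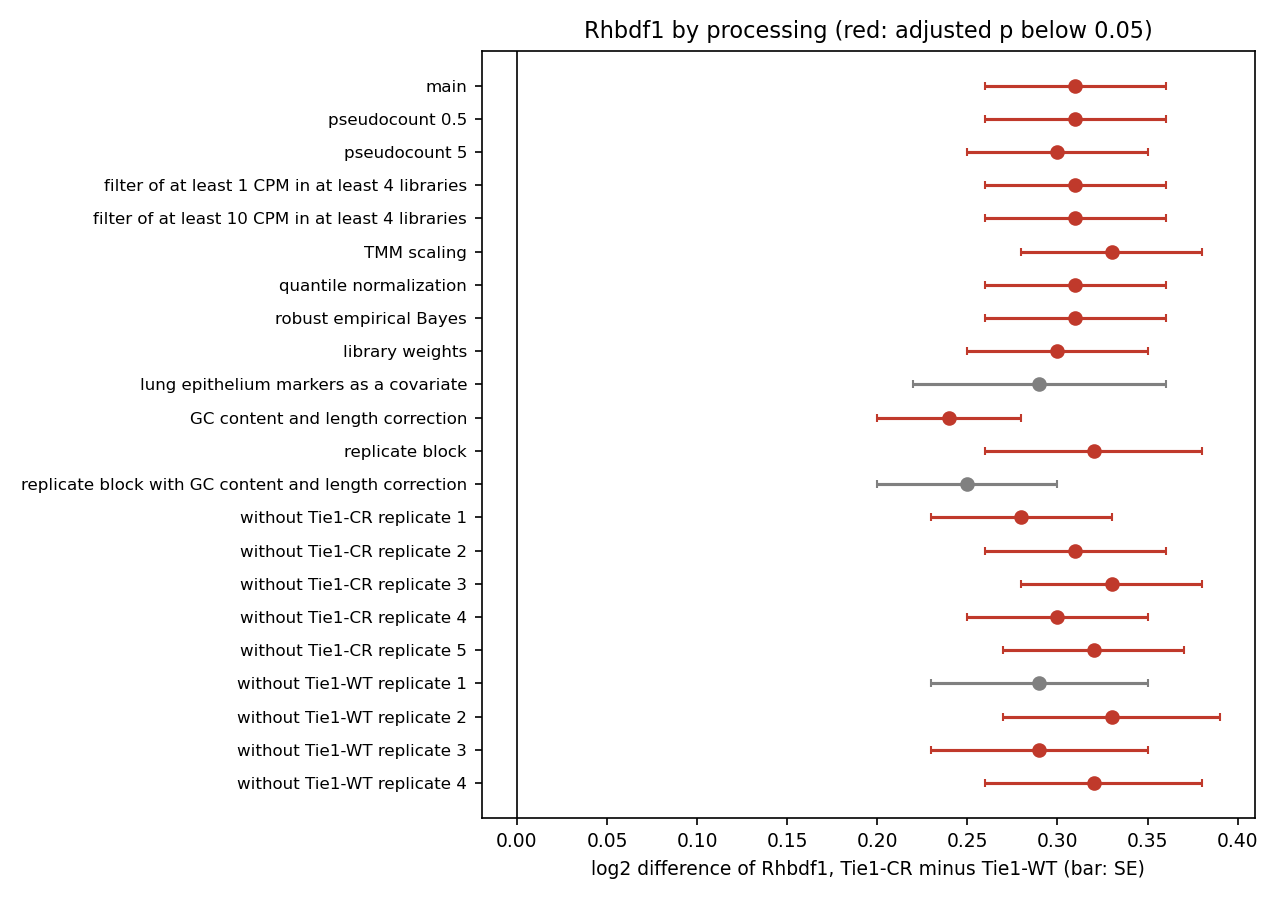
Difference of Rhbdf1 between Tie1-CR and Tie1-WT (x axis, log2, with SE) under each way of processing (rows); red marks an adjusted p below 0.05 and grey one above it. The values run from 0.24 to 0.33, and the 3 grey points are the fit with the epithelial covariate (0.29), the replicate block with GC content and length correction (0.25) and the fit without Tie1-WT replicate 1 (0.29).

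Of the 3 gamma-secretase subunit genes, 0 passed in either direction (limma, and 0 also at an unadjusted p below 0.05). Gamma-secretase cuts the stubs that sheddases leave in the membrane. It combines a presenilin as its catalytic subunit with nicastrin, an APH1 scaffold protein and PEN-2. Psen2 measured 64.8, 75.5, 67.7, 68.4 and 65.2 CPM in Tie1-CR and 59.1, 62.3, 73.4 and 60.7 CPM in Tie1-WT. The Tie1-CR libraries lay above 3 of the 4 Tie1-WT libraries, while Tie1-WT replicate 3 exceeded all but the highest of them. Its log2 difference was 0.10, with a 95% interval of -0.05 to 0.25 (limma adjusted p = 0.42).

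Ncstn encodes nicastrin, the glycoprotein subunit that admits substrates with a short extracellular stub. It measured 313, 311, 315, 346 and 313 CPM in Tie1-CR and 295, 289.6, 292 and 323 CPM in Tie1-WT. Tie1-WT replicate 4 was the one Tie1-WT library within the range of the Tie1-CR libraries, and Tie1-CR replicate 4 was the highest library of all. The means over all libraries were 319 ± 14.9 CPM in Tie1-CR (SD, n = 5) and 300.0 ± 15.6 CPM in Tie1-WT (SD, n = 4), with a log2 difference of 0.09 (95% interval -0.02 to 0.21, limma adjusted p = 0.331). A stretch of 4.91% of its exon bases is shared with Copa, on the opposite strand.

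Aph1a encodes a scaffold subunit of the complex. It measured 18.8, 27.2, 18.9, 22.7 and 25.0 CPM in Tie1-CR and 23.4, 24.6, 19.9 and 22.8 CPM in Tie1-WT. The Tie1-WT libraries lay within the range of the Tie1-CR libraries. The log2 difference was -0.02 (95% interval -0.26 to 0.22, limma adjusted p = 0.942), and it was 0.0048 with TMM scaling and 0.03 with quantile normalization. Aph1a had the widest spread of the 9 genes among the Tie1-CR libraries, with an SD of 16.4% of the mean. Of its exon bases, 12.9% are shared with Car14 on the opposite strand, which measured 103 CPM in Tie1-CR and 94.4 CPM in Tie1-WT.

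Timp3 encodes a matrix-bound inhibitor of metalloproteases that blocks ADAM17 and ADAM10. It measured 502, 544, 409, 450.1 and 399 CPM in Tie1-CR and 386, 424, 498 and 353 CPM in Tie1-WT. The highest values were those of Tie1-CR replicates 1 and 2 and Tie1-WT replicate 3, and the groups overlapped widely. The means were 461 ± 61.7 CPM in Tie1-CR (SD, n = 5) and 415 ± 62.3 CPM in Tie1-WT (SD, n = 4), a log2 difference of 0.15 that did not pass (95% interval -0.10 to 0.40, limma adjusted p = 0.451). Within Tie1-WT its SD was 15% of the mean, the widest of the 9 genes in that genotype. A share of 21.3% of its exon bases is annotated to Syn3 on the opposite strand, in which Timp3 lies.

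The levels of the 9 genes were set beside each other as CPM per kb of annotated exon. On this scale Ncstn was highest, at 80.4 ± 3.75 in Tie1-CR (SD, n = 5) and 75.5 ± 3.93 in Tie1-WT (SD, n = 4). Adam15 followed at 63.9 and 60.5, Timp3 at 56.6 and 51.0, Adam10 at 37.4 and 35.1, and Rhbdf1 at 29.1 and 23.5, each with Tie1-CR before Tie1-WT. Psen2 stood at 15.8 and 14.7, Adam17 at 13.9 and 13.6, Adam9 at 10.8 and 11.8, and Aph1a at 6.53 and 6.57, in CPM per kb and again with Tie1-CR before Tie1-WT. Over the 9 libraries, the ranges of neighbours in this order overlapped for Adam15 and Timp3 (54.2 to 70.0 and 43.4 to 66.8) and for Psen2 and Adam17 (13.6 to 17.4 and 12.6 to 14.3), and for no other neighbours. Among the ADAM genes, the order was thus Adam15, Adam10, Adam17 and Adam9. With the length of the longest coding transcript in place of all exons, Adam15 passed Ncstn (132 and 110.1 in Tie1-CR) and Rhbdf1 passed Adam10 (53.7 and 40.0 in Tie1-CR), while the other places were as before.

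The 9 genes did not vary together from library to library. With the mean of each genotype removed, the 36 pairs had Pearson r between -0.66 (Adam10 and Adam15) and 0.96 (Adam15 and Timp3), with a median of -0.04 over 9 libraries. These r describe libraries that share depth and base composition within each library, and no test is attached to them. Adam15 and Timp3 had the highest r of the 36 pairs, and each was the other's nearest gene in the whole table (r = 0.959). A nearest gene is the maximum over the whole table, and for all 9 genes that maximum was 0.929 or above. Both were highest in Tie1-CR replicates 1 and 2 and Tie1-WT replicate 3, and both were low in Tie1-CR replicate 5 and Tie1-WT replicate 4. Psen2 varied with both at r = 0.76.

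**Figure D4:**
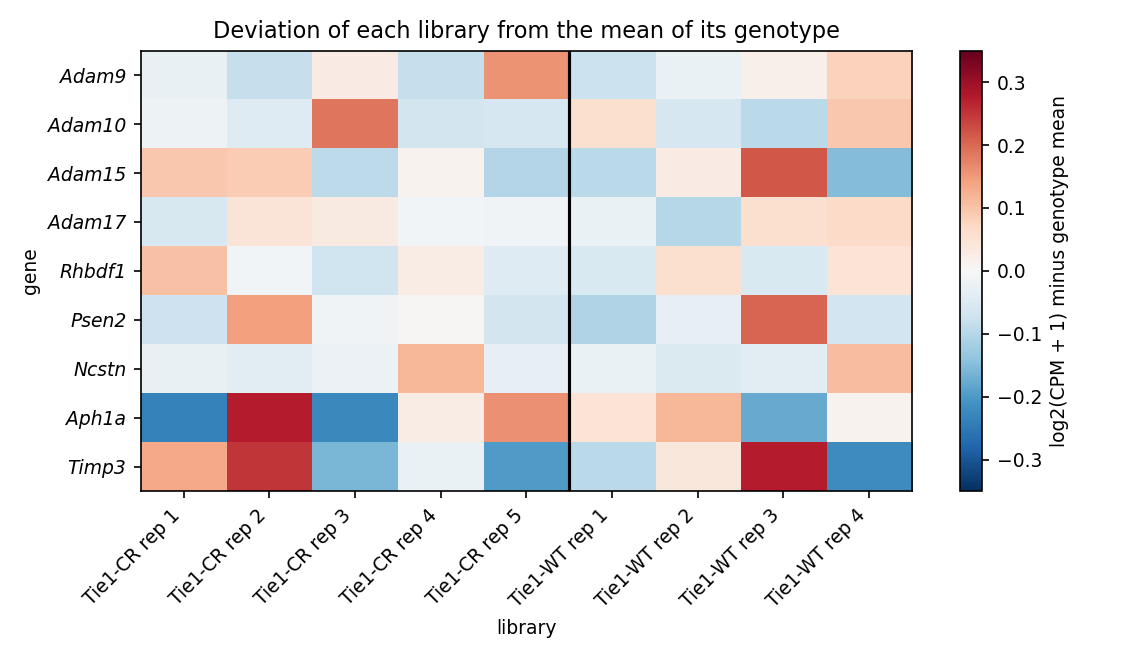
Deviation of each library (columns, Tie1-CR left of the line and Tie1-WT right of it) from the mean of its genotype for each of the 9 genes (rows), on the log2(CPM + 1) scale from blue (below) to red (above). The rows of Adam15 and Timp3 share their pattern, with Tie1-WT replicate 3 above its group by 0.217 and 0.274, and the row of Adam10 runs against them.

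For the other genes the nearest pattern in the table lay outside the machinery. It was Ssbp3 for Rhbdf1 (r = 0.976), Gprasp1 for Adam10 (r = 0.989), Fbxo25 for Adam17 (r = 0.963), Rps3a1 for Adam9 (r = 0.929), Rab3d for Psen2 (r = 0.977), Cers4 for Ncstn (r = 0.962) and Tulp3 for Aph1a (r = 0.975), each over 9 libraries with genotype means removed. Ssbp3, whose pattern within the genotypes was nearest to that of Rhbdf1, measured 74.9 ± 7.83 CPM in Tie1-CR (SD, n = 5) and 72.9 ± 6.39 CPM in Tie1-WT (SD, n = 4), with a limma adjusted p of 0.826 between them.

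Other genes of the same machinery were read from lists of 88 genes in 6 roles, of which 61 were measured. Beside the counts of each list, the shares over all genes were 1.28% called higher and 2.77% called lower. At an unadjusted p below 0.05, 22.3% of all genes passed in either direction. Of 15 genes of ADAM maturation and trafficking, 12 were measured, with 0 higher and 1 lower in Tie1-CR (limma; 2 higher and 1 lower at an unadjusted p below 0.05) and a median log2 difference of 0.04. The gene that fell was Nrd1, for nardilysin, a metalloprotease that enhances ADAM17 shedding. It measured 74.1, 80.0, 74.9, 76.4 and 77.2 CPM in Tie1-CR and 88.9, 90.1, 83.6 and 85.3 CPM in Tie1-WT, with no overlap (log2 difference -0.18, limma adjusted p = 0.0428). That call was narrow, since it ended with TMM scaling (adjusted p = 0.0738) and without each library but Tie1-CR replicate 2. Furin, the proprotein convertase that removes the inhibitory prodomain of ADAM proteases, measured 292 ± 15.5 CPM in Tie1-CR (SD, n = 5) and 273 ± 3.1 CPM in Tie1-WT (SD, n = 4), with a limma adjusted p of 0.266. Rhbdf2, the gene of iRhom2, was looked up after its value was seen. It measured 171 to 229 CPM in Tie1-CR and 159 to 179 CPM in Tie1-WT, so that the groups overlapped, with a log2 difference of 0.22 (95% interval 0.04 to 0.40) that did not pass (limma adjusted p = 0.133). Whether the rise of Rhbdf1 exceeds the difference of Rhbdf2 was not tested.

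Of 14 further ADAM and ADAMTS genes, 5 were measured and 0 passed in either direction (limma; 2 higher and 2 lower at an unadjusted p below 0.05), with a median log2 difference of -0.28. Adamts1, a secreted protease that cleaves matrix proteoglycans, measured 896 to 1435 CPM in Tie1-CR and 1107 to 2061 CPM in Tie1-WT, with a log2 difference of -0.56 and a limma adjusted p of 0.103. Without Tie1-WT replicate 4 the value was -0.76 and passed (limma adjusted p = 0.0149), the only setting run in which it did. With any other library left out it lay between -0.64 and -0.46 (limma adjusted p between 0.0866 and 0.254). Of 15 other sheddase genes, 7 were measured, with 1 higher and 0 lower (limma; 1 and 1 at an unadjusted p below 0.05). The gene that rose was Mmp28, for the secreted metalloprotease epilysin, at 43.4, 41.6, 34.6, 39.6 and 38.7 CPM in Tie1-CR and 27.5, 31.6, 27.0 and 34.4 CPM in Tie1-WT. The lowest Tie1-CR library lay just above the highest Tie1-WT library, and the log2 difference was 0.38 (limma adjusted p = 0.0297). It did not pass when any one library was left out, except Tie1-CR replicate 3 and Tie1-WT replicate 4. Mmp15, for a membrane-type metalloprotease, measured 137 ± 25.8 CPM in Tie1-CR (SD, n = 5) and 178 ± 28.5 CPM in Tie1-WT (SD, n = 4), with a limma adjusted p of 0.129.

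Of 4 remaining gamma-secretase genes, 2 were measured, and 0 passed in either direction (limma, and 0 also at an unadjusted p below 0.05). Psenen, the gene of PEN-2, is not among the 9277 genes. Of 5 further metalloprotease inhibitors, Timp2 and Reck were measured and 0 passed (limma, and 0 also at an unadjusted p below 0.05). Timp2, which inhibits matrix metalloproteases, measured 1046 ± 32.1 CPM in Tie1-CR (SD, n = 5) and 1002 ± 73.2 CPM in Tie1-WT (SD, n = 4), with a limma adjusted p of 0.55.

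Of 35 endothelial substrates of ADAM10, ADAM17 or gamma-secretase, 33 were measured, with 3 higher and 1 lower in Tie1-CR (limma; 9 higher and 1 lower at an unadjusted p below 0.05) and a median log2 difference of 0.08. Of all genes, 1.28% were called higher and 2.77% lower, and 22.3% passed at an unadjusted p below 0.05. Whether the substrates differ from other genes as a list was not tested. The genes that rose were Ephb4, L1cam and Jag2. Ephb4, a receptor tyrosine kinase of venous endothelium, measured 971, 1016, 1031, 1021 and 959 CPM in Tie1-CR and 777, 792, 755 and 842 CPM in Tie1-WT. Its log2 difference was 0.34, with 95% interval 0.22 to 0.45 and a limma adjusted p of 0.00787. L1cam, an adhesion molecule that ADAM10 sheds, measured 14.7, 21.2, 16.4, 19.6 and 16.0 CPM in Tie1-CR and 10.3, 10.8, 12.6 and 10.6 CPM in Tie1-WT (log2 difference 0.61, limma adjusted p = 0.0126). Jag2, a Notch ligand, measured 177 to 224 CPM in Tie1-CR and 141 to 168 CPM in Tie1-WT (log2 difference 0.30, limma adjusted p = 0.0461), and its call ended without each library but Tie1-CR replicate 5.

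Hbegf, the membrane-anchored precursor of an EGF receptor ligand that ADAM17 releases, was the substrate gene that fell. It measured 25.8, 26.3, 26.1, 27.9 and 29.2 CPM in Tie1-CR and 49.1, 58.3, 51.6 and 32.5 CPM in Tie1-WT. The Tie1-CR libraries lay close together, and Tie1-WT replicate 4 lay nearest to them. The log2 difference was -0.77, with 95% interval -1.06 to -0.48 and a limma adjusted p of 0.0123. Without Tie1-WT replicate 1 it was not called (adjusted p = 0.0573), and the same held for L1cam (adjusted p = 0.0585). With the epithelial markers as a covariate, the differences were 0.31 for Ephb4, 0.66 for L1cam, 0.31 for Jag2, 0.31 for Mmp28, -0.67 for Hbegf and -0.19 for Nrd1, and none of these passed (limma adjusted p between 0.104 and 0.286). That fit called 1 gene higher and 16 lower over the whole table. Pecam1, the junctional adhesion molecule CD31, measured 2713 ± 56.9 CPM in Tie1-CR (SD, n = 5) and 2592 ± 217 CPM in Tie1-WT (SD, n = 4), with a limma adjusted p of 0.578.

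**Figure D5:**
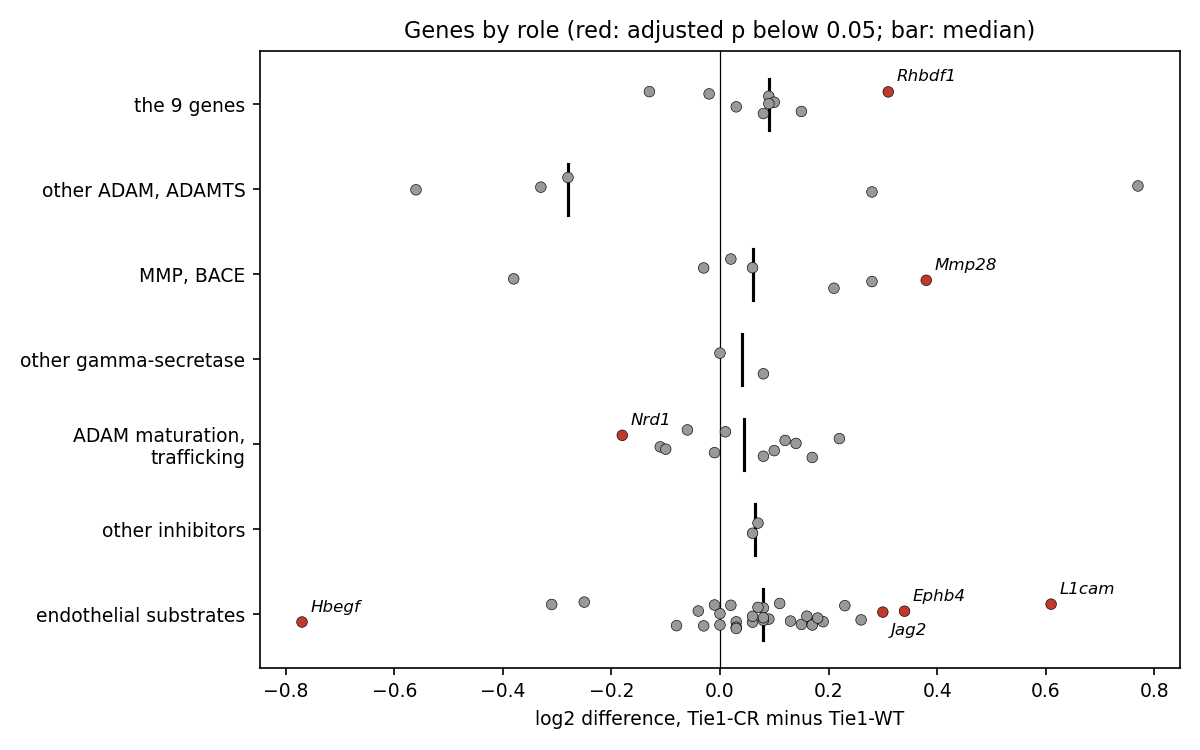
Difference between Tie1-CR and Tie1-WT (x axis, log2) for the 9 genes and for the measured genes of each other role (rows, 1 point per gene, with a vertical offset for legibility only); red marks an adjusted p below 0.05 and the bar is the median. Called genes are Rhbdf1 (0.31), Mmp28 (0.38), Nrd1 (-0.18), Hbegf (-0.77), Jag2 (0.30), Ephb4 (0.34) and L1cam (0.61).

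The substrate of the machinery, Tie1 itself, measured 2329 to 2679 CPM in Tie1-CR and 2079 to 2171 CPM in Tie1-WT, without overlap. In 3.74% of all genes, all Tie1-CR libraries lay above all Tie1-WT libraries. The two-sided p was 0.016 by exact permutation, which cannot be lower with these groups and is that of any gene without overlap. Tie1 did not pass in the fit across all genes (limma adjusted p = 0.107). Its log2 difference was 0.19, and 0.11 with quantile normalization (exact permutation p = 0.048). A level of Tie1 transcript does not check the altered cleavage site. The 12 endothelial markers were all measured, with a summed level of 22335 to 23255 CPM in Tie1-CR and 20000.4 to 22302 CPM in Tie1-WT, and 0 of them were higher and 1, Erg, was lower in Tie1-CR (limma; 3 higher and 1 lower at an unadjusted p below 0.05). Of the 12, 10 had a difference above 0, as did 3848 of all 9277 genes. For these and the markers below, the shares over all genes were 1.28% called higher and 2.77% lower. At an unadjusted p below 0.05, 22.3% of all genes passed in either direction. Of 12 leukocyte markers only Lyz2 and Cd68 are among the genes of the table, with 0 higher and 1 lower in Tie1-CR (limma; 1 and 1 at an unadjusted p below 0.05). Lyz2 measured 76.2 CPM in Tie1-CR and 37.8 CPM in Tie1-WT, a log2 difference of 1.11 (limma adjusted p = 0.0669), and Cd68, the marker that was called, 5.3 CPM and 10.7 CPM, a difference of -0.90. Each gene of the table reaches at least 10.01 CPM in some library. Cd68 did so only in Tie1-WT, and its highest Tie1-CR value was 7.04 CPM. Its place in the table thus rests on the group where it is high, and its call is no separate evidence. Lyz2 was lowest in Tie1-WT replicate 1 and highest in Tie1-CR replicate 5 (19.7 and 113 CPM). The epithelial marker Sftpa1 was lowest and highest in the same libraries (16.7 and 112 CPM). Which cells gave the Lyz2 reads was not tested. Of 12 fibroblast and mural cell markers 6 were measured, with 0 called (limma, and 0 also at an unadjusted p below 0.05). From 38208696 to 54408116 reads were counted per library.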

How the data were processed

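Per the labels' protocols, total RNA isolated with the PicoPure kit was turned into libraries by the SMARTer Ultra Low kit. That kit amplifies cDNA and does not mark strand. Alignment tool STAR 2.7 and builds GRCm38.p6 and mm10 are listed, per the submitters' processing notes. How reads were assigned to genes, and how the table's genes were chosen, is not given in the sources used here. The authors deposited 1 table named as TPM, whose values are CPM: every value is a whole multiple of a step particular to its library, within 0.01 reads. The steps give the depth of each library, of which 98.3% to 98.61% lies in the table. Each gene of the table reaches at least 10.01 CPM in some library and no value is 0. The table has 0 sample columns outside the labels.

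Values were used as log2(CPM + 1) without a filter. This scale understates the change of low genes. The fit over all 9277 genes used limma 3.58.1 in R 4.3.3, with two-sided p-values from a trended empirical Bayes fit, adjusted by Benjamini-Hochberg, and called below 0.05. Single values were compared by exact permutation of the library labels, two-sided (scipy 1.17.1, Python 3.11.15). Correction for GC content and length used natural splines with 4 degrees of freedom over the 9048 symbols (97.5%) matched to the GENCODE M21 annotation of GRCm38, which also gave positions and sequences. Zinc-binding and active sites were located by a pattern of amino acids in the translation of the longest coding sequence. For Rhbdf1 that pattern already held the alanine. TMM factors were computed from the CPM. The fit was run on simulated data with independent noise per gene and planted changes. The GC correction was run on such data with a planted linear GC trend. TMM scaling was run on the real values with a library rescaled by a known factor. The length correction and the epithelial covariate were not tested in this way. All pairs of libraries of a genotype differed beyond counting error (lowest chi-square per degree of freedom 21.4). Plots were drawn with matplotlib 3.10.9.

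The members, the gene lists and the tests were chosen with earlier results of these data known. All 9 members and Tie1 are named. From each list of other genes, those past the threshold (at most 4) and the one with the highest mean are named, with Rhbdf2 and the members of small lists added after their values were seen. A gene that this rule selects is not reported here. Alternatives covered the pseudocount, a filter on low values, scaling, the variance model, an epithelial covariate, GC content and length, a replicate block and each library left out. Reads may be copies from cDNA amplification, so counting errors are lower limits.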

Additional observations from a re-analysis of the deposited data

Results flagged for a closer look

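Among the groups of libraries of the 9 genes and of Tie1, 20 groups were examined for a single library that stands apart, and 4 had one. Adam10 measured 209 CPM in Tie1-CR replicate 3, while the other Tie1-CR libraries lay between 176 and 181 CPM. Ncstn measured 346 CPM in Tie1-CR replicate 4, with the others of that genotype between 311 and 315 CPM. In Tie1-WT replicate 4, Ncstn measured 323 CPM, with the others between 289.6 and 295 CPM. Tie1 measured 2679 CPM in Tie1-CR replicate 4, with the others between 2329 and 2423 CPM. Chance alone flags about 1 in 20 groups. Ncstn and Tie1 were both high in Tie1-CR replicate 4.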

How the results depend on the processing

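Of the 9 genes, 1 was called higher and 0 lower, with 0 higher under the epithelial covariate, under the replicate block with GC content and length correction, and without Tie1-WT replicate 1 (range 0 to 1 with a library left out). Rhbdf1 was called under 18 of 21 alternatives. Of these, the filter at 1 CPM removed 0 genes and so repeated the main fit. The pseudocounts of 0.5 and 5 hardly changed a gene of this level (limma adjusted p = 0.00962 and 0.00944). Over all genes, 119 were higher and 257 lower in Tie1-CR. The higher genes numbered 182 with TMM scaling (51.6% of calls lower) and 183 with quantile normalization (50.9% lower), beside 68.4% lower without rescaling. With library weights 245 were higher and 416 lower, and with the epithelial covariate 1 and 16. Leaving out a library gave 6 to 110 higher and 54 to 245 lower genes, the fewest without Tie1-WT replicate 1.

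Same-numbered libraries deviated from their genotype means with r of -0.144, 0.004, -0.06 and 0.19 between them. Libraries of different number had r from -0.341 to 0.283. Deviations within a genotype sum to 0, so these few r cannot tell whether the replicate numbers pair the libraries. With the replicate block, 38 genes were higher and 145 lower, and Rhbdf1 was called (0.32 log2, limma adjusted p = 0.0421). With the block and the GC content and length correction, 23 were higher and 71 lower, and Rhbdf1 was not called (0.25 log2, adjusted p = 0.0806). Calls of other genes also ended with the block, for Nrd1 (adjusted p = 0.135), Mmp28 (0.0567) and Jag2 (0.0578). With the GC content and length correction alone, Jag2 (0.20 log2, adjusted p = 0.146) and Nrd1 (-0.12, 0.13) were lost, and with both also Ephb4 (0.0975), Hbegf (0.0679) and Mmp28 (0.096).

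Aph1a, not called in any setting run, changed sign with TMM scaling (0.0048) and quantile normalization (0.03), and ran from -0.09 to 0.04 with a library left out. Adam17 ran from -0.001 to 0.05 with a library left out, and was 0.11 with GC content and length correction. The other members kept their direction in all 21 alternatives. Their sizes moved more, with a library left out, for Timp3 (0.24 when Tie1-WT replicate 3 was omitted, 0.08 when Tie1-WT replicate 4 was), Adam15 (0.16 and 0.03 for the same omissions), Psen2 (0.06 when Tie1-CR replicate 2 or Tie1-WT replicate 1 was omitted, 0.17 for Tie1-WT replicate 3), Adam10 (0.04 without Tie1-CR replicate 3) and Ncstn (0.06 without Tie1-CR replicate 4), none of which was called in any setting run. The ratio of Rhbdf1 to Adam17 differed by 0.24 to 0.33 log2 with a library left out. The planned count-based tests on recovered reads were not run. The cause of these changes was not tested. Genes below about 10 CPM in all libraries cannot be assessed.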
